A study of Mus musculus with 8 samples.

Results

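The transcriptome of the normal embryonic lens was described from 4 arrays, each hybridized with RNA of lenses dissected from wild type mouse embryos at embryonic day 15.5 (E15.5). They are 4 of the 8 samples of the series and were chosen by their genotype label; the 4 transgenic arrays were not used. The labels give the strain as a mixed background, and the study's methods describe the wild type embryos as littermates of embryos that carried a transgene driven by the αA-crystallin promoter. The samples are labeled as biological replicates, without saying how many embryos or lenses went into each. The molecule is labeled total RNA, whereas the free-text description of all 4 samples also names polysome-bound RNA. Values are the log2 of the deposited Affymetrix signal, averaged over the 4 arrays and given with the SD (n = 4), and no test between groups was made.

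The lens grows from a single layer of epithelial cells at its front, which divide and then elongate at the equator into fiber cells. Fiber cells fill with crystallins, the soluble proteins that give the lens its refractive power, assemble beaded filaments and a spectrin-actin membrane skeleton, couple through gap junctions and the membrane protein Mip, and later remove their nuclei and organelles. Epithelium and fibers were not separated here, so a signal belongs to the dissected lens with whatever tissue came along, and fewer cells of a type cannot be told apart from less RNA per cell.

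The array measured 12393 genes with at least 1 probe set that names a single gene, and the brightest such probe set stood for the gene. A gene was called above background when its mean log2 signal exceeded 4.88, the level under which 95% of 71 probe sets for olfactory, vomeronasal and taste receptors lay. By this rule 9770 genes, 78.8%, were above background. The 1239 genes of highest signal, 9.998% of all, form what is called the top class here, with a mean log2 signal of at least 11.68. Ranks are ranks of signal, which depends on the probes as well as on the transcript. For the 4530 genes above background with at least 2 probe sets, the brightest exceeded the second brightest by a median of 1.66 on the log2 scale (quartiles 0.71 and 2.99), so the order of genes is coarse.

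The measured lens markers were above background on all 4 arrays. Cryaa, which encodes αA-crystallin, read 14.34, 14.23, 14.31 and 14.19 on replicates 1 to 4 and ranked 10 among all genes. Mip, the fiber membrane protein also called aquaporin 0, read 13.53, 13.28, 13.65 and 13.58. Bfsp1, the gene for filensin of the beaded filament, read 12.30, 11.78, 12.30 and 11.82. These fiber genes were in the top class, and Bfsp1 varied most of them, being lower on replicates 2 and 4. Pax6, the transcription factor required for eye formation, read 12.15, 11.90, 12.04 and 11.88, and Prox1, a homeodomain factor needed for fiber elongation, read 9.14, 9.03, 9.43 and 9.15. Foxe3, Pitx3 and Maf, regulators of the lens, had means of 7.40, 9.30 and 6.53, all above background but outside the top class. Prox1, Foxe3, Pitx3 and Maf lay below 9.66, the stricter level taken later from genes of other tissues. The fiber genes Lim2 and Bfsp2 had no probe set naming them alone and were not analysed here.

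Crystallins led the ranking. α-crystallins are small heat shock proteins, and β- and γ-crystallins form a family of structural proteins built from Greek key folds. Of 16 crystallins listed, 14 were measured, all were above background (78.8% of all genes were), and 13 were in the top class (9.998% of all genes were). Their median signal was 14.14, against 8.34 over all genes. The highest was Cryba1 at 14.59 ± 0.01, followed by Crybb3 at 14.58 ± 0.04 and Cryga at 14.50 ± 0.04, which held ranks 1 to 3. Crybb1 (14.42 ± 0.03), Cryba4 (14.22 ± 0.08), Cryba2 (14.15 ± 0.11), Crygb (14.13 ± 0.07), Crygn (14.09 ± 0.06) and Crygd (14.01 ± 0.04) were also among the 30 highest genes. Crygf (13.95 ± 0.07), Crygs (13.65 ± 0.08) and Cryab (13.59 ± 0.05) followed. Crygf was read by a probe set of suffix _x_at, and the γ-crystallin genes Crygc and Cryge had no probe set naming them alone. Whether other γ-crystallin transcripts added to the Crygf signal was not tested. Together the crystallins made up 1.69% ± 0.05 (SD, n = 4) of the signal summed over all genes. The 41 measured ribosomal protein genes made up 3.33% ± 0.16. All crystallins but Crybb2 lay close to the top of the scale, so this is a share of signal and not of RNA.

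Within the family neighbors in the order lay close together. In 9 of 13 neighboring pairs the first gene was higher on all 4 arrays, although in 6 of these 9 pairs the 4-array ranges overlapped. The ranges did not overlap for Crybb1 over Cryaa, Crygf over Crygs and Cryab over Crybb2. Each pair sets different probe sets against each other, so the order is one of signal. The upper end of the scale was also compressed: the highest gene value on any array was 14.61, and the brightest spiked control read between 14.66 and 14.67, so the brightest genes lay close to the brightest signal on the arrays. The effect of this ceiling on the order was not tested. Crybb2 stood far below its relatives. It read 9.90, 9.44, 10.56 and 10.50 on replicates 1 to 4 (10.10 ± 0.53), with rank 3392, and was the crystallin with the largest spread. Crybb2 was 3.49 ± 0.50 below Cryab on the log2 scale, on all 4 arrays. Each crystallin except Cryab rested on 1 probe set, and the 3 probe sets of Cryab had means of 13.59, 13.54 and 3.46, the last below background.

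**Figure D1:**
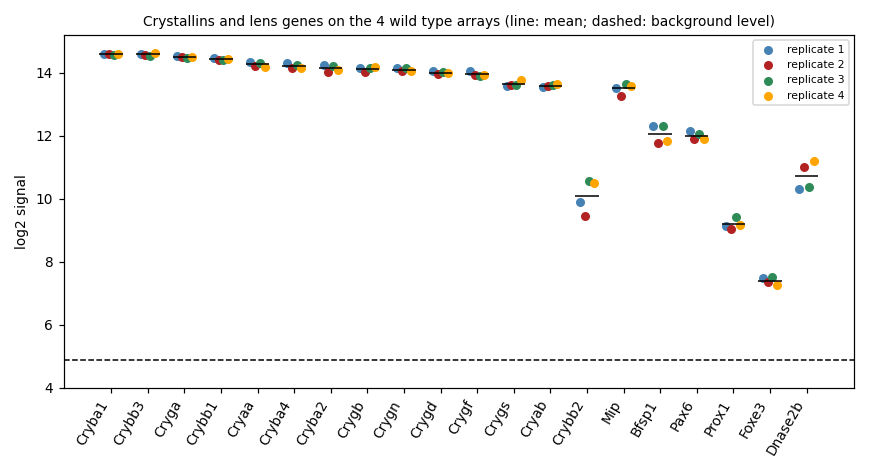
Log2 signal (vertical axis) of the 14 measured crystallins and 6 further lens genes (horizontal axis) on the 4 wild type arrays; points are arrays, short lines are means and the dashed line is the background level. All crystallins but Crybb2 sit close to the top of the scale with arrays nearly superimposed, whereas Crybb2, Bfsp1 and Dnase2b spread more.

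Upstream sequences of crystallin genes are shown because these genes share the top of the ranking. RefSeq (GRCm38.p6) gave 13 of the 14 measured crystallins a window before the annotated start, and Cryab has no entry in the table. The 150 bases before the start are printed for the 5 crystallins of highest signal and for Crybb2, the lowest. Capitals mark TATAAA or TATATA, forms of the TATA box that positions the transcription machinery, and TGCTGA or its reverse complement TCAGCA, the core of the sequence bound by Maf factors.
Cryba1, chr11:77725294-77725443, minus strand: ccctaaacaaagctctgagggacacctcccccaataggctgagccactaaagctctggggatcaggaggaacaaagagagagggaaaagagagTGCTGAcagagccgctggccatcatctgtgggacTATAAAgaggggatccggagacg
Crybb3, chr5:113081585-113081734, minus strand: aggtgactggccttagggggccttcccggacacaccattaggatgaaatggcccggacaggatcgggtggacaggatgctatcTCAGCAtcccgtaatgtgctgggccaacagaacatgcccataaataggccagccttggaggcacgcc
Cryga, chr1:65103364-65103513, minus strand: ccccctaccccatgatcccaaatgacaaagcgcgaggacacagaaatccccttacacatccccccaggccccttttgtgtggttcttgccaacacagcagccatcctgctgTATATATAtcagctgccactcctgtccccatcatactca
Crybb1, chr5:112255670-112255819, plus strand: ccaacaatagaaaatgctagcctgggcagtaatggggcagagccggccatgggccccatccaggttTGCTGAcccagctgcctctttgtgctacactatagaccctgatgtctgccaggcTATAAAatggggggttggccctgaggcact
Cryaa, chr17:31677781-31677930, plus strand: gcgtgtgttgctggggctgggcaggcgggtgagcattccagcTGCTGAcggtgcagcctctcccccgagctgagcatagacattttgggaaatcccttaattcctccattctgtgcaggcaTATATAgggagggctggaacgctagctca
Crybb2, chr5:113070118-113070267, minus strand: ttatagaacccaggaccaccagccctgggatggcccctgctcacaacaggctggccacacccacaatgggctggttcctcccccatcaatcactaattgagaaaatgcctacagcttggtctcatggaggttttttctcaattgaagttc

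A TATAAA or TATATA on the gene's strand within 50 bases of the start was present in 9 of the 13 crystallin windows, 69.2%. The same held for 5.06% of the 9887 measured genes with a window and 4.39% of 27025 genes in the table. Genes of the top class were close to the background share, at 5.02%. TGCTGA on either strand within 250 bases before the start was present in 9 of the 13 crystallins and in 16.6% of measured genes. The crystallin windows held few CG pairs, a median of 3 in 250 bases, against 6 over all genes of the table, 15 over measured genes, 19 over the top class and 4 over genes not above background. Among genes not above background the TATA share was 12.4%. Cryba1, Crybb1 and Cryaa carry both marked motifs in the printed stretch and Crybb2 neither. Crybb3, Cryba4 and Cryba2, at ranks 2, 11 and 16, had no TATA match. Crygb, Crygd and Crygf, also of high signal, had no TGCTGA on either strand. Several crystallins are related genes, so the 13 windows are not independent. A match of these letters is a description of the sequence and not a measured binding site, and the motifs were chosen after the ranking was known.

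The other top genes belonged largely to protein synthesis. Of the 30 highest genes, 10 were crystallins and 10 encoded ribosomal proteins, namely Rpl41, Rpl35, Rps29, Rpsa, Rpl27a, Rps26, Rps28, Rplp2, Rps20 and Rpl13a. The rest were Selenow, a selenoprotein (14.27 ± 0.02), Cd24a, a surface glycoprotein (14.21 ± 0.08), Tmsb10, an actin monomer-binding peptide (14.19 ± 0.05), Pebp1 (14.19 ± 0.08), Ywhae, a 14-3-3 protein (14.14 ± 0.11), Vdac1, the mitochondrial outer membrane channel (14.13 ± 0.06), Eef1a1, a translation elongation factor (14.02 ± 0.02), Actb (14.01 ± 0.05), the actin-severing protein Cfl1 (14.01 ± 0.09) and Mrfap1 (14.01 ± 0.13). Rpl41, Rpl35, Rps29, Rps20, Rpl13a, Selenow, Cd24a, Tmsb10, Pebp1, Vdac1 and Cfl1 were read by probe sets of suffix _x_at. Whether such probe sets also picked up related transcripts was not tested. Of 41 measured ribosomal protein genes, 40 were above background and 35 in the top class, against 78.8% and 9.998% of all genes. Their median was 13.61. Rpl37, also a component of every ribosome, read 3.71 ± 0.25 on its only probe set, and Rpl39 and Rps27 read 6.49 and 6.94. A reading below background is therefore no evidence that a transcript was absent.

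Genes of energy metabolism and of protection against oxidation lay below the ribosomal protein genes, with list medians of 12.57 for the respiratory chain, 11.58 for antioxidant genes and 11.09 for glycolysis. All 28 respiratory chain and ATP synthase genes were above background and 19 were in the top class, led by Cox7a2 (14.00 ± 0.06), Cox5b (13.91 ± 0.04), Ndufa1 (13.87 ± 0.06) and Uqcrc2 (13.64 ± 0.11). Of 20 genes of glucose uptake and glycolysis, 19 were above background and 9 in the top class, against 78.8% and 9.998% of all genes. Slc2a1, the glucose transporter GLUT1, led them at 13.84 ± 0.06, before the glycolytic enzymes Aldoa (13.49 ± 0.11), Pgk1 (13.18 ± 0.03) and Pgam1 (12.85 ± 0.13), while Slc2a2, the liver and islet transporter, was not above background at 2.88 ± 0.15. All 23 antioxidant genes were above background and 10 in the top class. Sod1, the cytosolic superoxide dismutase, read 13.71 ± 0.09, and Prdx2, Gpx1 and Gstp1 read 13.40 ± 0.10, 13.35 ± 0.07 and 13.31 ± 0.11. A further list held 6 measured enzymes that serve as crystallins in other animals or are related to such enzymes. Aldh1a1 was highest at 13.21 ± 0.17, then Cryz (11.11 ± 0.18), Cryzl1 (9.98 ± 0.06) and Crym (7.12 ± 0.74). Aldh3a1, abundant in the cornea, was not above background at 3.51 ± 0.14.

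Genes that build the cytoskeleton and membrane of fibers had high signal, although many of them, such as Actb, Tuba1a and Ncam1, are active in other cells too. All 17 measured genes of the fiber cytoskeleton were above background and 13 in the top class, against 78.8% and 9.998% of all genes. Actb (14.01 ± 0.05), the intermediate filament gene Vim (13.96 ± 0.05), the tubulin Tuba1a (13.73 ± 0.06) and the spectrin Sptan1 (13.66 ± 0.34) led. All 11 measured genes of fiber membrane and junctions were above background and 6 in the top class, namely Mip, the gap junction gene Gja1 (13.43 ± 0.09), which is also the connexin of the lens epithelium, the adhesion genes Ncam1 (13.16 ± 0.11), Cdh2 (12.95 ± 0.11) and Cadm1 (12.93 ± 0.03), and Tmem40 (12.19 ± 0.29). Gja3, the connexin of fiber cells, read 9.25 ± 0.23. Mip shows how far 2 probe sets of a gene can part, since its second read 11.88, 10.78, 12.37 and 11.22, with an SD of 0.70 against 0.16 for the first.

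Epithelial genes and transcription factors lay lower in the ranking. All 15 measured epithelial genes were above background and 4 in the top class, namely Gja1, the secreted Wnt modulator Dkk3 (13.28 ± 0.03), Pdpn (12.48 ± 0.17) and Pax6. Of 27 lens transcription factors and RNA regulators, all were above background and 6 in the top class, against 78.8% and 9.998% of all genes. Celf1 (13.27 ± 0.04) and Tdrd7 (12.56 ± 0.25), both RNA-binding factors required for a clear lens, led, followed by Mab21l2 (12.34 ± 0.45), Six3 (12.04 ± 0.08), Pax6 and the Notch target Hey1 (11.94 ± 0.12). Sox1 and Eya1 were closest to background at 4.98 ± 0.12 and 5.04 ± 0.14. The 5 probe sets of Pax6 had means of 12.00, 9.17, 8.23, 8.10 and 4.45, and so the choice of probe set alone could place Pax6 in the top class or below background.

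**Figure D2:**
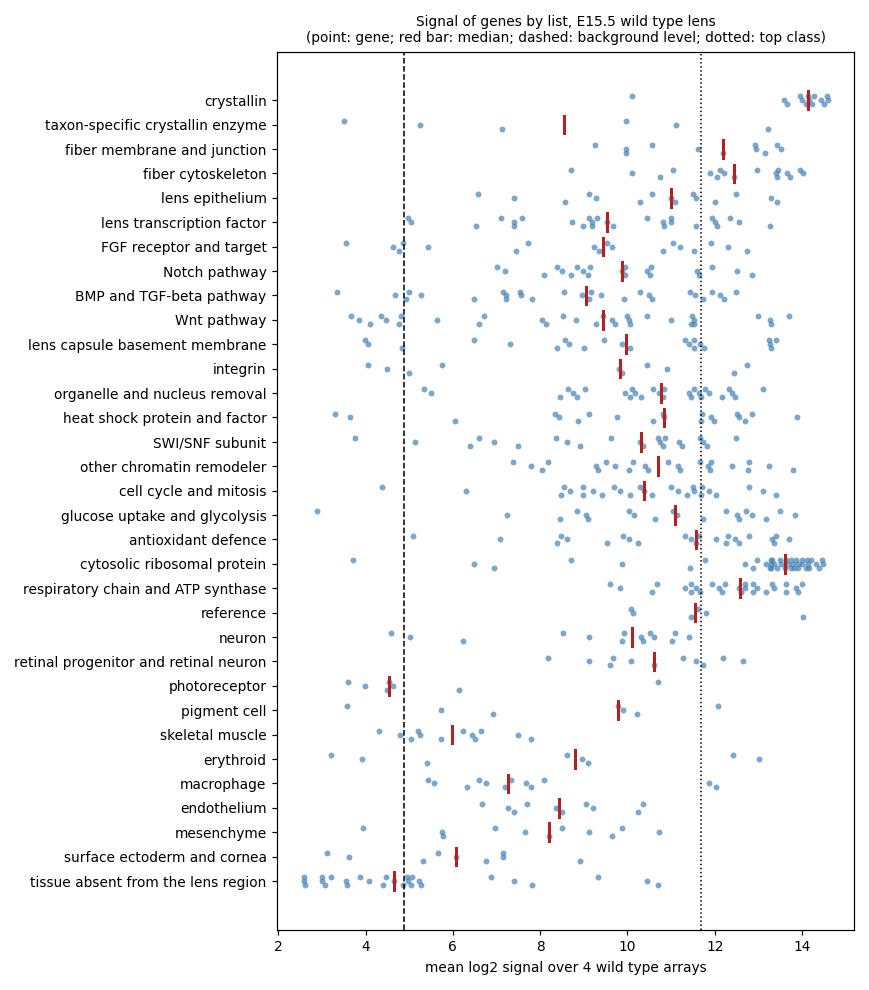
Mean log2 signal over the 4 wild type arrays (horizontal axis) of the measured genes of each list (rows); points are genes, red bars are list medians, and the dashed and dotted lines mark the background level and the lower edge of the top class. Crystallins, ribosomal proteins and the respiratory chain lie to the right, and the lists of muscle, surface ectoderm and absent tissues to the left.

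Signaling genes were read by their roles. Fibroblast growth factor (FGF) drives fiber differentiation, and 14 of the 18 measured FGF pathway genes, 77.8%, were above background, close to the 78.8% of all genes. The receptor Fgfr2 read 11.91 ± 0.14, Fgfr3 10.81 ± 0.06 and Fgfr1 9.35 ± 0.11, whereas Fgfr4 was not above background at 4.76 ± 0.14. The second probe sets of Fgfr2, Fgfr3 and Fgfr1 read 6.53, 6.13 and 5.79, all above background. The levels of these receptors therefore rested on the probe set chosen. Among ligands Fgf9 read 7.73 ± 0.39, and Fgf1 (4.62 ± 0.41) and Fgf2 (3.54 ± 0.06) were not above background. The feedback inhibitor Spry2 (12.75 ± 0.09), the phosphatases Ptpn11 (12.31 ± 0.20) and Dusp6 (11.52 ± 0.15) and Fgfr2 were the 4 highest, and Spry4 was not above background at 4.85 ± 0.25. All 21 Notch pathway genes were above background, led by the receptor Notch2 (12.85 ± 0.13), the protease Adam10 (12.51 ± 0.13), Hey1 and the ligand Jag1 (11.64 ± 0.27).

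Of 28 genes of bone morphogenetic protein and transforming growth factor-β signaling, 26 were above background. The ligand Tgfb2 read 12.49 ± 0.08, the shared mediator Smad4 12.21 ± 0.10, the receptor Acvr2a 12.13 ± 0.18 and the target Id2 11.94 ± 0.16. The receptor Bmpr1b (4.68 ± 0.14) and the antagonist Nog (3.35 ± 0.40) were not above background. Of 31 Wnt genes 24 were above background, 77.4% against 78.8% of all genes, and next to Ctnnb1, which encodes β-catenin (13.70 ± 0.13), the highest were the secreted modulators Dkk3, Sfrp2 (13.27 ± 0.06) and Sfrp1 (12.98 ± 0.07). The 7 Wnt genes not above background were Sfrp5, Dkk2, Lef1, Wnt2, Wnt8a, Wnt2b and Wnt3.

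The lens capsule is a thick basement membrane secreted by lens cells. Of 22 measured components 19 were above background and 5 in the top class, 86.4% and 22.7% against 78.8% and 9.998% of all genes. Sparc (13.40 ± 0.16), the linker Nid1 (13.28 ± 0.08) and the collagen IV chains Col4a1 (13.26 ± 0.26) and Col4a2 (13.24 ± 0.23) were highest. The collagen IV chains divided into levels: Col4a5 and Col4a6 read 11.76 ± 0.32 and 11.53 ± 0.42, whereas Col4a3 (3.98 ± 0.61) and Col4a4 (4.83 ± 0.53) were not above background, nor was Lamb3 (4.05 ± 0.20). Of 10 integrin genes 8 were above background, close to the share of all genes. Itgav (12.74 ± 0.20) and Itga6 (12.45 ± 0.08), a laminin receptor subunit, were in the top class, followed by Itgb5 (10.90 ± 0.25) and Itgb1 (10.45 ± 0.51), and Itga2 (4.50 ± 0.73) and Itgb3 (4.05 ± 0.18) were not above background.

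Genes of cell division and of exit from the cell cycle were both above background, and the cells they came from were not separated. Of 27 cell cycle genes 26 were above background and 6 in the top class, against 78.8% and 9.998% of all genes. The D-type cyclins Ccnd1 (13.41 ± 0.08) and Ccnd2 (12.79 ± 0.12), the replication clamp Pcna (12.03 ± 0.09) and the cyclin-dependent kinase inhibitor Cdkn1c (13.10 ± 0.10) were the 4 highest, and the inhibitor Cdkn2a was not above background at 4.38 ± 0.18. All 28 genes linked to removal of nuclei and organelles were above background and 7 in the top class. After Cdkn1c these were led by the protease Ctsb (12.47 ± 0.33), the phospholipase Plaat3 (12.40 ± 0.38) and the autophagy gene Map1lc3b (12.32 ± 0.19). Dnase2b, the nuclease that degrades fiber cell DNA, read 10.32, 11.02, 10.36 and 11.19 on replicates 1 to 4, so replicates 2 and 4 were higher than replicates 1 and 3. Hsf4, the heat shock factor of the lens, read 10.81 ± 0.36.

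Of 20 heat shock genes 18 were above background and 8 in the top class, led by Hspa8 (13.88 ± 0.02), Hsph1 (12.85 ± 0.30), Hsp90aa1 (12.68 ± 0.16) and Hspe1 (12.55 ± 0.20). Hspb7 (3.63 ± 0.17) and the inducible Hspa1a (3.29 ± 0.33) were not above background. SWI/SNF complexes move nucleosomes with the ATPases Brg1, encoded by Smarca4, or Brm, encoded by Smarca2. Of their 22 measured subunits 21 were above background and 3, or 13.6%, in the top class, against 78.8% and 9.998% of all genes. The highest were Smarce1 (12.48 ± 0.13), Ss18 (11.81 ± 0.22), Smarcb1 (11.73 ± 0.13) and Pbrm1 (11.66 ± 0.31). Smarca4 read 10.98, 10.63, 10.82 and 11.01 with its brighter probe set and 7.25, 6.79, 7.87 and 7.63 with the other. Smarca2 read 10.24, 10.37, 10.35 and 10.44, and 6.52, 5.63, 6.50 and 6.70 with its other probe set. Both ATPase genes were above background with either probe set on every array. Bcl7a was the subunit not above background, at 3.76 ± 0.43. All 24 genes of other chromatin regulators were above background and 8 in the top class, led by the histone-binding protein Rbbp4 (13.78 ± 0.11), Gatad2a (13.24 ± 0.18), Hmga2 (12.79 ± 0.13) and the DNA methyltransferase Dnmt1 (12.76 ± 0.07).

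In several families 1 member had by far the highest signal. Families were defined by symbol after the ranking was known. Among 8 Pax genes Pax6 stood at 12.00 and the next, Pax9, at 5.18, a difference between 6.48 and 7.37 on the individual arrays. Among 13 connexins Gja1 exceeded Gjc1 by 3.81 to 4.39, and among 8 fatty acid binding proteins Fabp5 (13.20 ± 0.09) exceeded Fabp7 by 4.20 to 4.91. Capn3, the calpain with lens-specific splice forms (13.59 ± 0.28), exceeded Capn2 by 2.01 to 2.56 among 11 calpains. These leaders were read off the ranking, and probe sets of a single gene can lie as far apart, with an upper quartile of 2.99. The 6 genes of 14-3-3 proteins, adaptors that bind phosphorylated partners, behaved differently and all lay in the top class, between 12.96 and 14.14.

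Regulators of position along the trunk were near the floor. Of 31 Hox genes 4 were above background, against 78.8% of all genes, and the highest, Hoxd9, read 5.69 ± 0.33. Among 17 Sox genes 14 were above background, led by Sox4 (12.44 ± 0.19) and Sox2 (11.56 ± 0.13). Among 17 cadherins Cdh2 and the epithelial Cdh1 (11.58 ± 0.09) led, and among 8 water channels named Aqp 4 were above background and none was in the top class. Of 21 imprinted genes, which are transcribed from 1 parental copy, 20 were above background and 8 in the top class. The shares over all genes were 78.8% and 9.998%. Ndn (13.66 ± 0.14), Gnas (13.39 ± 0.17), Grb10 (13.21 ± 0.10) and Cdkn1c were the highest, followed by Peg3 (12.88 ± 0.15) and Plagl1 (12.85 ± 0.19). The second probe sets of Gnas and Grb10 read 5.60 and 5.96, and that of Igf2, also in the top class, 5.20. The places of Gnas, Grb10 and Igf2 therefore rested on the probe set chosen. Zim1 was not above background at 4.16 ± 0.53.

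**Figure D3:**
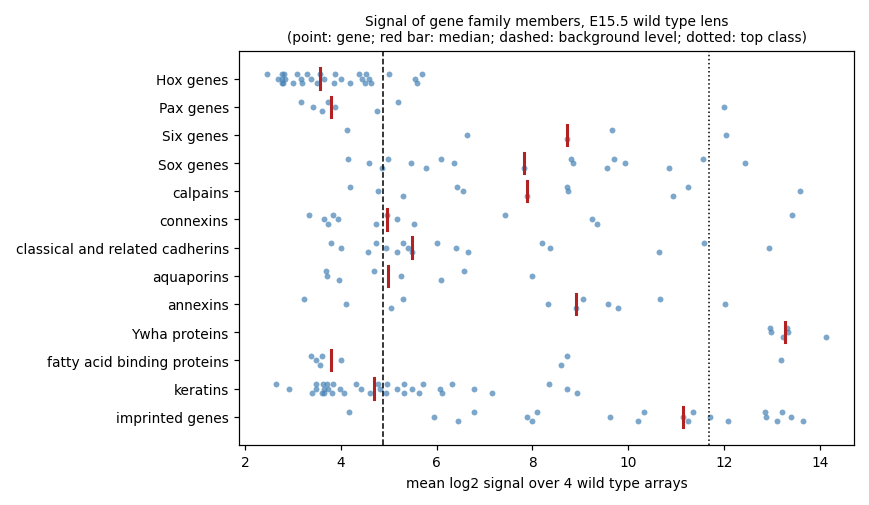
Mean log2 signal over the 4 wild type arrays (horizontal axis) of the members of 13 gene families (rows); points are genes, red bars are medians, and the dashed and dotted lines mark the background level and the lower edge of the top class. Single genes stand apart in the Pax, connexin and fatty acid binding protein rows, the 14-3-3 genes (Ywha row) lie together at the right, and most Hox genes lie left of the background level.

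Many genes of neighboring tissues were also above background, as were 78.8% of all genes. All 11 measured genes of retinal progenitors and retinal neurons passed, with Fgf15 (12.66 ± 0.19), Atoh7 (12.19 ± 0.05), a factor for retinal ganglion cells, and Isl1 (11.73 ± 0.31) in the top class, and Sox2, also a lens gene, next. Of 14 neuronal genes 13 passed, led by Elavl3 (11.40 ± 0.37), Snap25 (11.08 ± 0.63), Nefl (11.03 ± 0.46) and Elavl4 (10.60 ± 0.34), and the neuropeptide gene Npy did not (4.58 ± 0.20). Of 7 photoreceptor genes 2 passed, Abca4 (10.69 ± 0.19) and Sag (6.14 ± 0.31), whereas Prph2, Gnat1, Pde6b, Rcvrn and Opn1sw did not. Of 7 pigment cell genes 6 passed, led by Mitf (12.07 ± 0.09), Tyrp1 (10.22 ± 0.42), Dct (9.89 ± 0.50) and Pmel (9.77 ± 0.66), and Rpe65 did not (3.58 ± 0.15). The second probe sets of Atoh7, Isl1 and Mitf read 8.78, 9.10 and 8.58, and the others of Elavl3 8.52 and 6.39. All were above background but outside the top class, so the places of these genes rested on the probe set chosen. Several of these genes, Sox2, Six6 and Lhx2 among them, are also on the list of lens transcription factors.

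Blood and vessel genes were present as well. The globin genes Hbb-b2 (13.02 ± 0.07) and Hbb-y (12.42 ± 0.37) were in the top class, Alas2, an enzyme of heme synthesis, read 9.10 ± 0.38 and the embryonic globin Hba-x 8.97 ± 0.32, while Hba-a1 (3.20 ± 0.11) and Epb42 (3.93 ± 0.10) were not above background. All 12 macrophage genes were above background, led by C1qb (12.03 ± 0.24), Csf1r (11.86 ± 0.23), C1qc (8.09 ± 0.19) and Lyz2 (7.79 ± 0.28). The other probe sets of Csf1r read 9.78 and 7.25, those of C1qb 10.96 and 8.23, and that of Hbb-b2 7.25. The places of these genes therefore rested on the probe set chosen. All 10 endothelial genes were above background, with Flt1 (10.35 ± 0.28), Tek (10.25 ± 0.23), Kdr (9.20 ± 0.17) and Egfl7 (9.05 ± 0.23) highest.

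Of 11 mesenchymal genes 10 were above background, led by the collagen genes Col1a1 (10.72 ± 0.77), Col5a1 (9.88 ± 0.41) and Col5a2 (9.65 ± 0.25) and by Foxc1 (9.12 ± 0.31), and Lum was not (3.95 ± 0.73). Of 12 skeletal muscle genes 10 passed but at low signal, the highest being Actc1 (7.78 ± 0.71), Mylpf (7.50 ± 0.43), Myl1 (6.65 ± 0.79) and Acta1 (6.50 ± 0.40), and Ckm and Myh8 did not. Of 9 genes of surface ectoderm and cornea 7 passed, 77.8% against 78.8% of all genes, with Krt18 (8.92 ± 0.26), Krt8 (7.16 ± 0.72), Epcam (7.15 ± 0.31) and Krt5 (6.77 ± 0.36) highest, and the corneal keratin Krt12 (3.61 ± 0.36) and Cldn4 (3.12 ± 0.16) did not. As a yardstick, 12 of 27 genes listed for other tissues, such as pancreas, liver and testis, also passed, with Gcg, the glucagon gene, at 10.69 ± 0.35, Cela1 at 10.46 ± 0.32, Tcp11 at 9.32 ± 0.28 and Ttr, which pigment epithelium of the eye also makes, at 7.82 ± 1.46. With the 95th percentile of this list as background, 9.66, only 4121 genes passed, including 14 of 14 crystallins, 16 of 17 fiber cytoskeleton genes, 10 of 15 epithelial genes, 13 of 27 lens transcription factors, 9 of 14 neuronal genes, 8 of 11 retinal genes, 4 of 7 pigment cell genes, 2 of 12 macrophage genes, 2 of 10 endothelial genes, 2 of 11 mesenchymal genes and none of the 12 muscle genes or the 9 genes of surface ectoderm and cornea. Of 8 erythroid genes 2 passed. Of the signaling lists 7 of 18 FGF and 11 of 21 Notch genes passed. So did 11 of 28 bone morphogenetic protein and transforming growth factor-β genes and 14 of 31 Wnt genes.

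The arrays were alike, with Pearson correlations across probe sets between 0.982 and 0.991, the lowest between replicates 2 and 3. Of the genes above background, 870, or 8.90%, had an SD over 0.5 on the log2 scale, and the median SD was 0.23. In the top class 2 genes exceeded that limit. The 10 genes of the top class with the smallest SDs were Bbip1, Rpl10a, Cryba1, Rpl41, Dst, Hmgn1, Selenow, Rnf187, Hspa8 and Micos10. Their SDs ran from 0.010 to 0.021. Several, such as Cryba1, Rpl41 and Selenow, lay close to the brightest signal on the arrays, where a small SD is no measure of steadiness. Of the genes often used as references, Actb (14.01 ± 0.05), Hprt (11.61 ± 0.09), B2m (11.80 ± 0.12), Gusb (10.12 ± 0.13) and Sdha (11.47 ± 0.16) varied less than Tbp (10.09 ± 0.43). Actb also lay near the top of the scale, so its small SD carries the same limit.

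The largest spread came from genes tied to sex. Eif2s3y, on the Y chromosome, read 10.87, 2.67, 2.54 and 11.24 on replicates 1 to 4, and the Y-linked Kdm5d read 8.08, 2.51, 2.36 and 8.73. The Y-linked Uty followed them with an SD of 2.57 around a mean of 4.51, which was not above background. Xist, the RNA that coats the inactive X chromosome, read 5.42, 12.71, 13.05 and 7.66. Replicates 1 and 4 therefore carried Y-linked signal and replicates 2 and 3 high Xist. In replicate 4 the brightest Xist probe set lay above that of replicate 1, and its other probe sets read 5.87 and 3.06 there.

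The next most variable genes did not divide by sex. S100a8, a calcium-binding protein of neutrophils, read 8.28, 6.00, 10.05 and 9.56, and its partner S100a9 read 8.15, 6.76, 9.83 and 9.66, so both were lowest in replicate 2. The neutrophil gene Ngp read 5.17, 4.43, 5.76 and 7.93. Ttr, which encodes the carrier transthyretin, read 7.38, 8.24, 6.09 and 9.56, and Chac1, a stress-induced enzyme of glutathione breakdown, read 6.44, 7.49, 6.41 and 9.55. Replicate 4 was the highest for Ngp, Ttr and Chac1. Cyp1b1 read 7.45, 10.29, 8.27 and 9.98. The remaining genes of largest spread were Doc2b, Camk2b, Zfp316, Cltrn, Omg and H1f4, with SDs of 1.15 to 1.31. Hopx, a homeodomain-only protein named here after its values were seen, read 12.27, 12.05, 10.49 and 10.58, and its second probe set 10.99, 9.59, 9.49 and 8.53.

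**Figure D4:**
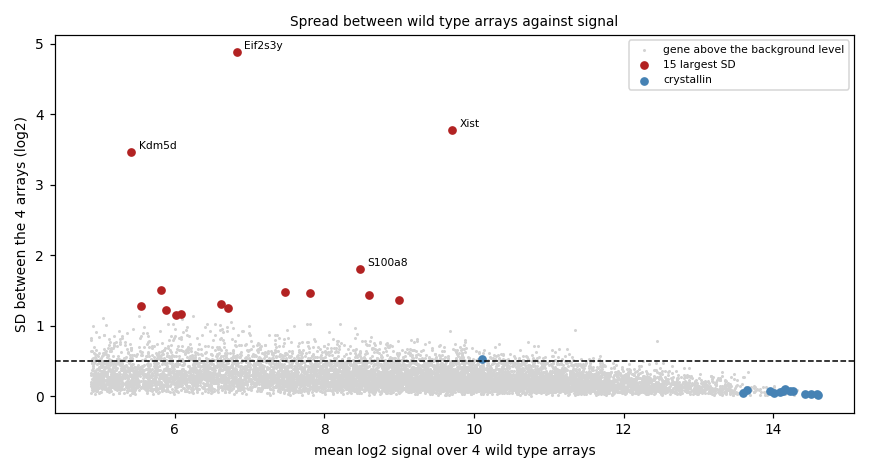
SD between the 4 wild type arrays (vertical axis, log2) against mean log2 signal (horizontal axis) for the 9770 genes above background; red points are the 15 genes of largest SD, blue points the crystallins, and the dashed line is an SD of 0.5. Xist, Eif2s3y and Kdm5d stand far above the rest, and the crystallins, Crybb2 excepted, lie at the lower right.

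Some of the spread was shared by genes of a tissue. Relative to the 4-array mean, the median neuronal gene above background deviated by -0.41 in replicate 1 and by 0.25, 0.14 and 0.32 in replicates 2 to 4, and 8 of the 13 genes were lowest in replicate 1. The intensity summed over the list ran from 11708 in replicate 1 to 19734 in replicate 4. The retinal list moved with it, with -0.31, 0.29, -0.04 and 0.18 and 7 of 11 genes lowest in replicate 1. All 6 pigment cell genes above background were highest in replicate 4, and the median gene deviated by 0.51 there and by -0.48 in replicate 3. Mesenchymal genes deviated by 0.35 in replicate 4 and by -0.40 in replicate 3, and surface ectoderm genes by 0.40 in replicate 4 and -0.30 in replicate 1. Erythroid genes deviated by 0.41 in replicate 1, where 5 of 6 were highest. Macrophage and endothelial genes deviated little, by 0.00 to 0.14 and by -0.03 to 0.11. Lens capsule genes deviated by -0.27 in replicate 3, where 10 of the 19 above background were lowest. Dimmer genes also spread more in general, with a median SD of 0.23 above background and 0.13 in the top class. The median crystallin deviated by -0.04 to 0.04, but at signals close to the brightest on the arrays, so this small deviation is no measure of steadiness. Whether the amount of neighboring tissue differed between the samples was not tested.

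Control probe sets also differed between the arrays. The signal of 3′ minus 5′ control probe sets, averaged over β-actin and Gapdh, was 1.90, 2.66, 1.43 and 2.20 on replicates 1 to 4 (2.05 ± 0.52), highest in replicate 2 and lowest in replicate 3. Replicate 3 also had the most genes more than 1 log2 unit below the other arrays, 186, and replicate 2 the most above, 111. In replicate 1 these counts were 64 and 13, and in replicate 4 they were 26 and 89. The heat shock list deviated by -0.23 in replicate 2, and 25 of the 40 ribosomal protein genes above background were lowest there. The part of the control difference, which both RNA integrity and amplification can set, in these deviations was not tested.

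**Figure D5:**
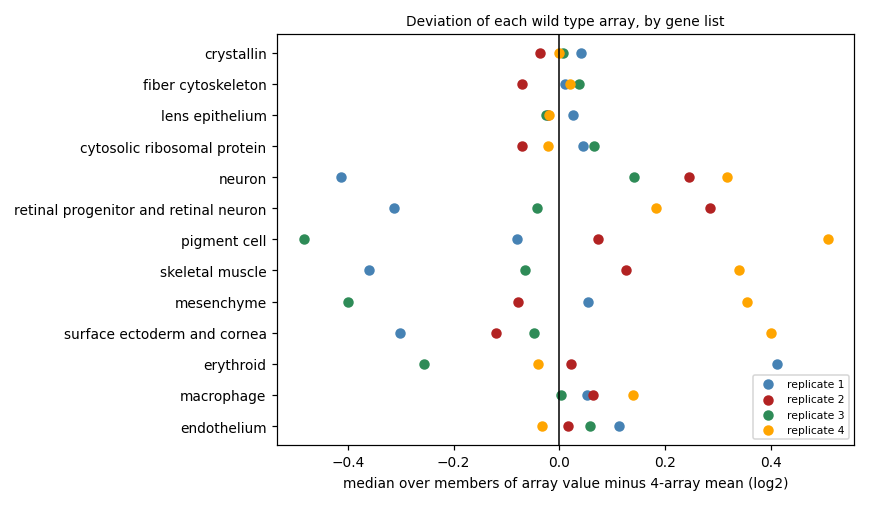
Median over the members of a list above background of the array value minus the 4-array mean (horizontal axis, log2) for 13 gene lists (rows), with a point for each wild type replicate. The crystallin, fiber cytoskeleton, lens epithelium and ribosomal lists lie close to 0, the crystallins near the ceiling of the signal. Macrophage and endothelial lists also spread little. Neuronal, retinal, pigment cell, muscle, mesenchymal, surface ectoderm and erythroid lists spread more widely.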

How the data were processed

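RNA from E15.5 wild type lenses was profiled on Affymetrix mouse expression arrays after amplification of 50 ng with the NuGEN Ovation system. The authors deposited intensity values on the linear scale after robust multichip average (RMA) normalization, which subtracts background, equalizes the probe distributions of the arrays and summarizes each probe set. No RMA version was found in the sources read. Equalized distributions remove a change shared by most transcripts. Intensities ran from 4.00 to 26158 across the 4 arrays, whose small number limits how precisely a mean is known.

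Deposited values were taken to log2 with Python 3.11.15, pandas 2.3.3 and numpy 2.4.6, and plotted with matplotlib 3.10.9. Of 22690 probe sets, 64 controls were set aside, 20380 named 1 gene, 691 several and 1555 none, by the platform's annotation, and only the first kind was used. A gene was represented by its brightest probe set. Groups came from the genotype label, and 0 columns belonged to other samples. Genes were named by rule: the lens markers, all crystallins, the 30 highest genes, the highest members of each list with those not above background, both SWI/SNF ATPases, reference and sex-linked genes, and the most and least variable genes. Members of symbol families, Hopx and the promoter motifs were added after the data were seen, and the lists and markers were chosen with earlier results of these data known. The functions were tested on simulated arrays. Alternatives covered the background level, the probe set rule, normalization, an added constant of 16 and each array left out. No test between groups was made.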

Additional observations from a re-analysis of the deposited data

Results flagged for a closer look

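Of 194 named genes, 13 had 1 array far from the other 3, by a gap beyond Dixon's 95% limit for the 4 log2 values. Chance flags about 1 in 20 such groups.

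Camk2b, a neuronal kinase subunit, read 3.64 in replicate 1 and 6.09 to 6.37 on the others, in the replicate where neuronal genes were lowest. Alas2, of erythroid cells, read 9.67 in replicate 1 against 8.83 to 8.97, and Lyz2, of macrophages, 7.38 in replicate 1 against 7.91 to 7.96. In replicate 2, Actb read 13.94 (14.03 to 14.04 on the others), Crygb 14.03 (14.15 to 14.18), Ccnd2 12.98 (12.72 to 12.75) and Micos10 13.50 (13.45 to 13.46). In replicate 3, Cryz read 11.38 (10.99 to 11.04), the endothelial Egfl7 8.70 (9.16 to 9.18), Hey1 12.12 (11.86 to 11.90) and Six3 11.93 (12.07 to 12.09). In replicate 4, Cd24a read 14.33 (14.17 to 14.18) and Slc2a1 13.93 (13.81 on the others).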

How the results depend on the processing

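The count of genes above background, 9770, became 4121 when the level was taken from genes of absent tissues, whose 95th percentile was 9.66, and 17 of 34 list counts moved by over 1.5 times with it. With the other levels and probe set rules it lay between 8821 and 11737, and without each array in turn between 9711 and 9835. The count of genes with an SD over 0.5, 870, became 602 with a constant of 16 added, 625 with the mean of all probe sets, and 598 to 1283 without each array in turn: 598 without replicate 3, 1283 without replicate 1. The mean control difference of 2.05 lay between 1.84 and 2.25 without each array. The median probe set difference of 1.66 became 1.48 over all genes and 1.94 without probe sets of suffix _s_at or _x_at. Of 194 named genes, 103 moved by more than their SD when all probe sets were averaged, and none did under quantile normalization. Leaving out 1 of 4 arrays or taking their median cannot move a mean by its SD, so those settings say nothing about stability. RMA had already equalized the distributions of the arrays, so a further quantile normalization says little about it either. Counts in the top class moved for 9 lists with averaged probe sets and 3 without the suffixed ones. No paired analysis was possible because a single group was described. Signal near background limits the dim genes.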

Other observations

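Other genes among the 100 highest were not on any list. Hmgcs1, an enzyme of cholesterol synthesis, read 13.96 and Clu, a secreted chaperone, 13.96. The nuclear transport GTPase Ran read 13.91, the histone chaperones Nap1l1 and Nap1l4 read 13.74 and 13.62, and Igfbp7, a secreted binding protein, read 13.66. The microtubule regulator Stmn1 and the membrane protein Basp1, both known from growing neurons, read 13.58 and 13.58. These genes were chosen after their values were seen.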
